A study of Mus musculus with 5 samples.

Results

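The genes described here are 38 mouse genes named as part of the cellular response to type I interferons, a set given by name and not chosen by the values below. A gene was measured where the array table held a row with its symbol alone, and where it had several such rows the row with the highest mean was used. This left 33 of the 38 among 12267 genes in all. Ifit3, Ifi44, Eif2ak2, Sp100 and Sp110 did not meet this rule and were not analysed here. The RNA came from CD4+ CD8- (CD4SP) thymocytes, sorted by flow cytometry from C57BL/6J mice between 4 and 6 weeks of age. The 2 wild type samples (replicates 1 and 2) were set against 3 samples from PLZF transgenic mice (replicates 1, 2 and 3), whose added gene encodes PLZF, the zinc finger factor that directs development of natural killer T cells. Each sample was a pool of mice, which the labels call a biological replicate, and was read on 1 exon array. The labels used here do not name the promoter that drives the transgene.

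Type I interferons bind the receptor formed by Ifnar1 and Ifnar2, whose kinases Jak1 and Tyk2 pass the signal on to Stat2. Stat2 and Irf9 act in a complex that binds the interferon-stimulated response element in the promoters of its target genes. Most of those targets encode sensors of foreign nucleic acid or proteins that block viral replication, and tonic signalling of this kind is known in the thymic medulla of mice, where single-positive cells mature.

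Of the 33 measured genes 2 passed the test of genotype, both lower in transgenic cells, where 3.02% of all genes were lower and 1.72% higher. Slfn5, of the Schlafen family, was 2.37-fold lower in transgenic cells, and Samhd1, a hydrolase of nucleotide building blocks that restricts retroviruses, was 1.14-fold lower. The other 31 measured members, among them Ifit1, Ifit2, Mx1, Mx2, Rsad2, Zbp1 and Dhx58, did not pass the test. Of 5 rows carrying the symbol of Ifi203, a DNA-binding protein of the PYHIN family, the brightest, used for the gene, was not called. In a fit of all rows, made after the values had been seen, the other 4 were lower in transgenic cells, against 2.73% of all rows. The calls of Slfn5, Samhd1 and these Ifi203 rows were lost when any 1 transgenic array was left out, although the changes moved little. Most calls over all genes were lost in those fits too. In sorted bulk samples, fewer cells of a type and less RNA per cell cannot be told apart. The 2 wild type arrays differed from each other in the same direction at 31 of the 33 members.

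The promoters of members that did and did not differ are shown first, since the response element is the site that the Stat2 and Irf9 complex binds. RefSeq promoter windows of 300 bases, from 250 before to 50 after an annotated start site on GRCm38.p6, were found for 29 of the 38 members and 24 of the 33 measured ones. The letters GAAANNGAA, the core of the interferon-stimulated response element, were searched on both strands. They occurred in 12 of these 29 members (41.4%), against 9.76% of 27025 genes in the table. The letters TTCNNNGAA, of the gamma-activated site, occurred in 6 of the 29 (20.7%), against 9.55% of those genes, and are not marked below. A match is a string of letters and not a measured binding site. Below, capitals mark the response element core. Ifit1 (chr19:34640639-34640938, plus strand) is shown as a classical target, Slfn5 (chr11:82951852-82952151, plus strand) and Samhd1 (chr2:157135047-157135346, minus strand) as the members that fell, Slfn8 (chr11:83020673-83020972, minus strand) as a neighbour of Slfn5 that did not, and Ifi203 (chr1:173942443-173942742, minus strand) for its rows that fell.
Ifit1: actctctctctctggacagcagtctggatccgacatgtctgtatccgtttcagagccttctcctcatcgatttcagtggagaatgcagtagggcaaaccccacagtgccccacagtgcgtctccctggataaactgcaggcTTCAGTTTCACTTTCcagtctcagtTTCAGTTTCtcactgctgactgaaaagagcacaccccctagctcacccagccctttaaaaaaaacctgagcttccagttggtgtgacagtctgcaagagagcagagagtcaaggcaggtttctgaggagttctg
Slfn5: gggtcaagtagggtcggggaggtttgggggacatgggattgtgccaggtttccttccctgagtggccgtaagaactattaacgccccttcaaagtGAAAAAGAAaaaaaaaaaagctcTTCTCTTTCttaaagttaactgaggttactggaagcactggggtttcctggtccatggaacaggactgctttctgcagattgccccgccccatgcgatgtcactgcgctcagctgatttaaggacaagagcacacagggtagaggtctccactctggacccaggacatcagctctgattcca
Slfn8: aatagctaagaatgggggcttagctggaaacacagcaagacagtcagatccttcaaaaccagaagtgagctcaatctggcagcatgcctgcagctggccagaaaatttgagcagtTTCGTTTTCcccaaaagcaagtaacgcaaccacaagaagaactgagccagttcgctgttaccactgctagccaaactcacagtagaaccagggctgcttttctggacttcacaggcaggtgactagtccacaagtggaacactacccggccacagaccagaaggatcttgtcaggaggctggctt
Samhd1: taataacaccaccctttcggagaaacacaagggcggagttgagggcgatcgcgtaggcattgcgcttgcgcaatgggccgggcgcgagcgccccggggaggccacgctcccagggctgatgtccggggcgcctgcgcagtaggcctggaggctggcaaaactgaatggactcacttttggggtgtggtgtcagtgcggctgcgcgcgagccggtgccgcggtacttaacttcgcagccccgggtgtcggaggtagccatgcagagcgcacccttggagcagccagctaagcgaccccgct
Ifi203: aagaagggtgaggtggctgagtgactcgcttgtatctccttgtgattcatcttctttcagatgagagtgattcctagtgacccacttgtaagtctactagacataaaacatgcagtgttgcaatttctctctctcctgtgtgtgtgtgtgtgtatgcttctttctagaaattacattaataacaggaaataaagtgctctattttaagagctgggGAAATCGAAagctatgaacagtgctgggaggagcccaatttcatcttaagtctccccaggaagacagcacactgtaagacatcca
Ifit1 held 3 matches, the first beginning 109 bases before the start site, and the first and second of them overlap. Slfn5 held 2, beginning 155 and 132 bases before the start site. Slfn8 held 1 in this window and Ifi203 1, whereas Samhd1 held no response element core. Among measured members with a window, the 9 with the core had a median log2 change of -0.04 (from -1.24 to 0.20) and the 15 without it a median of 0.04 (from -0.19 to 0.73). Of the 9 with the core 1 was called lower, and of the 15 without it 1, against 3.02% of all genes. Ifi203 is among the 9 by its brightest row, which was not called. With 2 called members, these counts cannot show whether the core goes with a fall.

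Values are log2(intensity + 1), where intensity is the summarised brightness of the probes of a transcript, and changes and folds are transgenic against wild type on that scale, which understates folds of dim genes. A gene was called where limma gave a Benjamini-Hochberg adjusted p under 0.05 over all 12267 genes. By that rule 0 of the 33 members were higher, against 1.72% of all genes, and 2 were lower, against 3.02% of all genes. At an unadjusted p under 0.05 in limma, 4 members were higher (Aim2, Mx1, Irf1 and Parp14), against 7.07% of all genes, and 3 were lower (Slfn5, Lgals9 and Samhd1), against 9.74%. All 3 transgenic arrays lay above both wild type arrays at 7 of the 33 members, against 12.6% of all genes, and below both at 4 of the 33, against 15.1%. The median change of the members was 0.01 and that of all genes 0. At 27 of the 33 members the change was under 0.25 in size. Of the 31 members that were not called, 24 had a 95% interval of the change that lay within 0.5 of no change. At 20 of the 33 members at least 2 arrays held the same value, and such ties can narrow these intervals. The widest bounds among these 31 were -1.26, for Ifi204, and 1.14, for Aim2. A p that misses the threshold does not show that the level was the same.

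**Figure D1:**
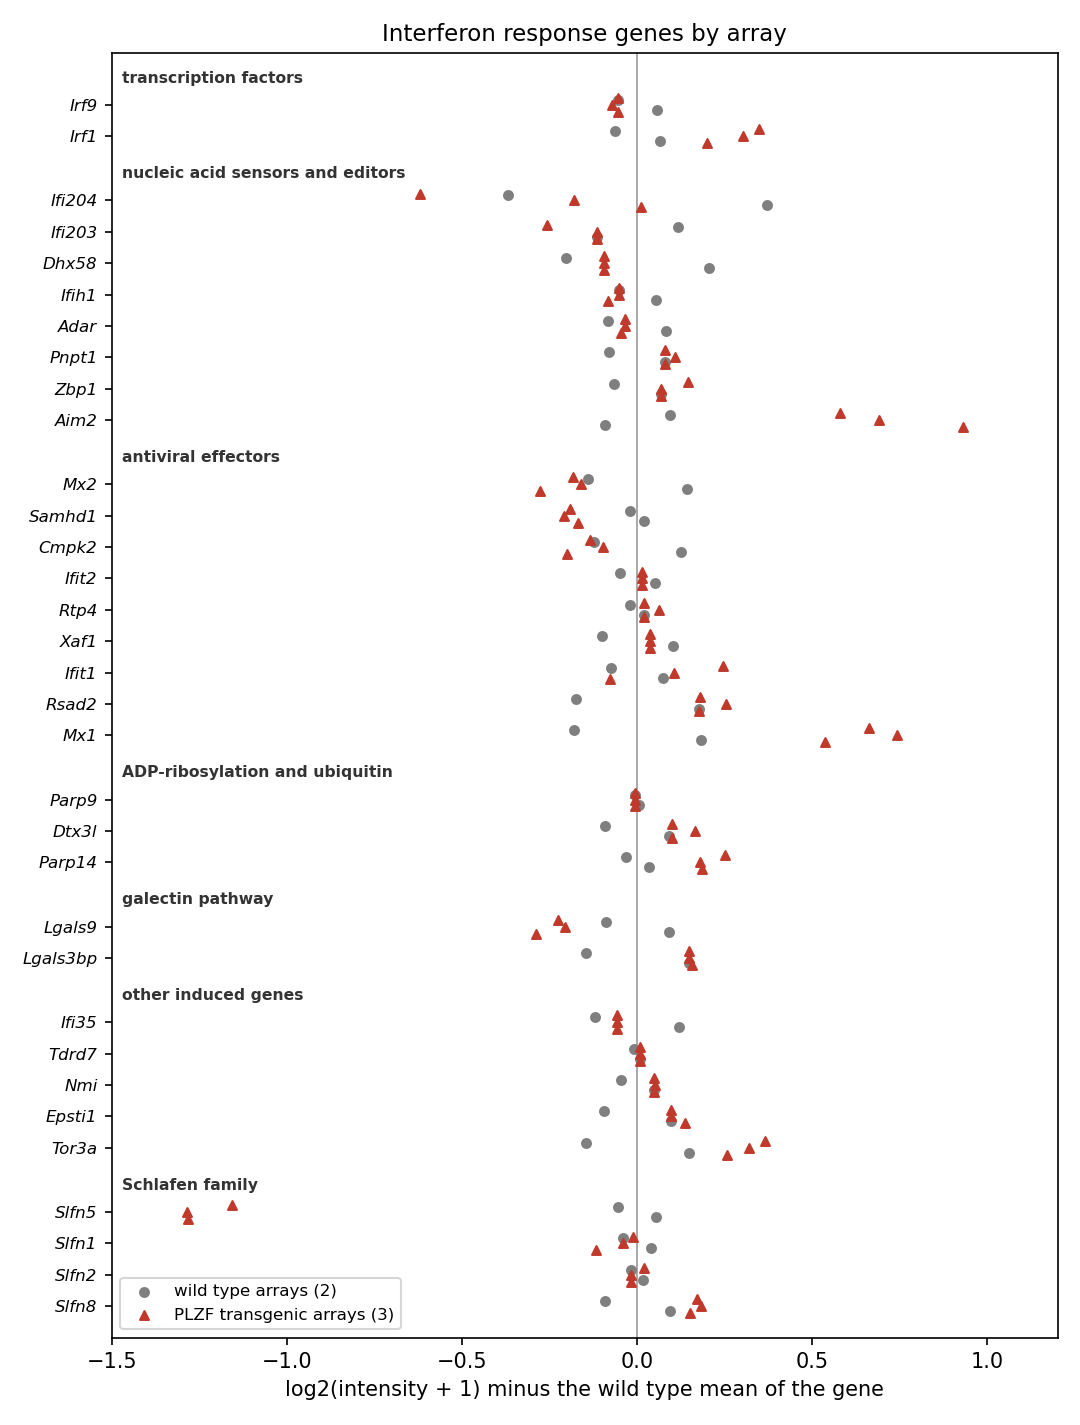
Each row is a measured member, and each point is an array, plotted on the horizontal axis as log2(intensity + 1) minus the wild type mean of that gene (grey circles, 2 wild type arrays; red triangles, 3 PLZF transgenic arrays). The transgenic points of Slfn5 lie more than 1 below both wild type points, those of Aim2 and Mx1 lie to the right of both, and most other members overlap or nearly touch.

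The Schlafen genes lie next to each other on chromosome 11 and are induced by interferons in mouse cells, and Slfn2 is needed for T cells to stay quiescent in mice. Slfn5 measured 9.76 and 9.87 in wild type cells, against 8.65, 8.53 and 8.53 in transgenic cells. The groups did not overlap, and the gap between them was over 10 times the SD within either. The change was -1.24 ± 0.06 (SE), from 9.81 ± 0.08 (SD, n = 2) to 8.57 ± 0.07 (SD, n = 3), and the adjusted p from limma was 0.0134. Without transgenic replicate 1, 2 or 3 its size hardly moved (-1.28, -1.22 and -1.22), while the limma adjusted p rose to 0.0666, 0.0885 and 0.0991. With array weights it was 0.129. Among the 4027 genes whose 5 values all differ, the limma adjusted p was 0.000878 with all arrays. That set is picked by the same values. In it 418 genes were called higher and 625 lower, against 211 and 370 of all 12267 genes. A lower adjusted p in that set is thus not separate support for the call. With any 1 array left out, in fits of that set added after the values had been seen, the change ran from -1.30 to -1.19. An antisense transcript at the same locus, Slfn5os, had a change of -0.10 ± 0.08 on the log2 scale (SE, limma adjusted p = 0.525).

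Slfn8, which like Slfn5 encodes a long Schlafen protein, had a log2 change of 0.17 with a 95% interval from -0.02 to 0.36. It measured 10.92 and 11.10 in wild type and 11.18, 11.19 and 11.16 in transgenic arrays, so all transgenic values were above both wild type values, but close to the higher one. The short Schlafen genes Slfn1 and Slfn2 had changes of -0.06 and -0.0048, with values of both groups interleaved. Their intervals were narrow, from -0.20 to 0.08 for Slfn1 and from -0.06 to 0.05 for Slfn2. Slfn2 read 11.94 in wild type replicate 1 and in transgenic replicates 2 and 3, and such a repeated value can narrow its interval. Slfn1 read 12.51 in wild type replicate 1 and in transgenic replicate 2. Of the Schlafen genes outside the set, Slfn3 had a change of -0.30 (adjusted p = 0.129 in limma) and Slfn9, which lies between Slfn5 and Slfn8, one of 0.28 (0.191). The change of Slfn4 was -0.02. The fall of Slfn5 was thus not matched by a call in any of the other 6 measured genes of this cluster, although the differences between these genes were not tested. Schlafen genes are similar in sequence, and probes that they share could blur differences between them.

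Of 11 listed antiviral effectors 9 were measured, of which 1 fell and none rose, where 3.02% and 1.72% of all genes did. Samhd1 was that gene. It measured 10.90 and 10.94 in wild type and 10.73, 10.71 and 10.75 in transgenic arrays. The groups were apart but the step was small, -0.19 ± 0.02 (SE), and the call rests on the low spread (SD 0.03, n = 2, and 0.02, n = 3; limma adjusted p = 0.0385). It was no longer called without transgenic replicate 1, 2 or 3 (0.179, 0.144 and 0.131) or without wild type replicate 2 (0.0621), nor with an intensity trend and robust fit (0.0517) or array weights (0.447), and the change ran from -0.21 to -0.17 with any 1 array left out.

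Mx1, a GTPase that blocks influenza virus in mice with an intact allele and whose allele in C57BL/6 mice is known to be defective, had the largest positive change of the effectors. It measured 7.03 and 7.39 in wild type and 7.87, 7.95 and 7.75 in transgenic arrays. All transgenic values were above both wild type values, which themselves differed by 0.36. The change was 0.65 ± 0.14 (SE) with a 95% interval from 0.22 to 1.07 and did not pass the test (limma adjusted p = 0.139). Its paralog Mx2 had a change of the opposite sign, at 7.96 and 8.24 against 7.92, 7.94 and 7.82, a change of -0.21 ± 0.11 (SE, limma adjusted p = 0.458).

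Ifit1, which binds viral RNA with an unmethylated cap, measured 10.42 and 10.57 in wild type and 10.74, 10.60 and 10.41 in transgenic arrays. Its lowest and highest values both came from transgenic arrays, and the change was 0.09 with a 95% interval from -0.27 to 0.45. Ifit2 read 9.47 in all 3 transgenic arrays, between its wild type values of 9.40 and 9.505. Rsad2, which encodes viperin, measured 9.0 and 9.35 in wild type and 9.36, 9.43 and 9.35 in transgenic arrays. Cmpk2, the mitochondrial nucleotide kinase next to Rsad2 on chromosome 12, had a change of -0.14 against 0.20 for Rsad2, with neither called and the difference not tested. Rtp4 had a change of 0.03. Xaf1, which promotes apoptosis, read 10.57 in all 3 transgenic arrays, between wild type values of 10.43 and 10.63, a change of 0.04. A second row of Xaf1 had the opposite sign, with 9.07 and 9.23 in wild type and 8.88, 9.06 and 9.08 in transgenic arrays, a change of -0.14 (limma adjusted p = 0.473).

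Of 9 listed sensors and editors of nucleic acid 8 were measured and none was called. Aim2, the receptor for cytosolic double-stranded DNA that assembles an inflammasome, had the largest change of all members in the positive direction. It measured 9.27 and 9.08 in wild type and 9.75, 9.87 and 10.10 in transgenic arrays, with no overlap. The change was 0.73 ± 0.14 (SE), or 1.66-fold, with a 95% interval from 0.32 to 1.14 and a limma adjusted p of 0.104. It passed after quantile normalization (0.0440), with dim genes removed (0.0479) and among genes with 5 different values (0.0157), and in no other alternative with all arrays. With the mean of its rows in place of the brighter one the change was -0.01 (limma adjusted p = 1), and with array weights the limma adjusted p was 0.626. A second, dim row of Aim2 pointed the other way, with 4.33 and 5.83 in wild type against 4.68, 4.02 and 4.28, a change of -0.76 whose 95% interval ran from -2.42 to 0.91.

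The RNA sensors had overlapping values in the 2 genotypes. Ifih1, which encodes MDA5, measured 10.06 and 10.17 in wild type and 10.06, 10.06 and 10.03 in transgenic arrays. Dhx58, which encodes LGP2, read 9.75 in all 3 transgenic arrays, inside a wild type pair of 9.64 and 10.04. Zbp1, the sensor of Z-form nucleic acid that can trigger necroptosis, measured 10.67 and 10.81 in wild type and 10.89, 10.81 and 10.81 in transgenic arrays. Adar, the enzyme that edits adenosine to inosine in double-stranded RNA, had a change of -0.04, and Pnpt1, an exoribonuclease of mitochondria, one of 0.09. Ifi204, of the PYHIN family, was dim, with a mean under 5.63, the lower quartile of all genes, and its values ran from 3.98 to 4.97 with the groups overlapping.

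Ifi203 had 5 rows, all with a negative change but of different size. The row used above, the brightest (array row 6764272), had 12.45 and 12.22 in wild type and 12.08, 12.22 and 12.22 in transgenic arrays, a change of -0.16 that was not called. In a fit of all 14011 rows with 1 symbol, made after the values had been seen, the other 4 rows were lower in transgenic cells, against 2.73% of all rows. Row 6764282 went from 11.54 and 11.22 to 10.40, 10.23 and 10.30, a change of -1.07 ± 0.13 (SE, limma adjusted p = 0.0473). Row 6764274 went from 9.58 and 9.63 to 8.87, 8.85 and 8.78, a change of -0.77 ± 0.04 (SE, limma adjusted p = 0.0132). For rows 6764270 and 6764265 the changes were -0.47 and -0.48 (limma adjusted p = 0.0331 and 0.0214). At each of these 4 rows the transgenic arrays lay below both wild type arrays. Without transgenic replicate 1, 2 or 3 none of the 5 rows was called (lowest limma adjusted p 0.0744, 0.0792 and 0.0717), and without either wild type array the same 4 were. With the mean of the 5 rows in place of the brightest, Ifi203 had a change of -0.59 and a limma adjusted p of 0.0101. The platform annotation gives these rows to 1 gene, so they were not counted as independent, and genes of the PYHIN cluster on chromosome 1 resemble each other, so signal from a neighbour on these probes cannot be told apart from that of Ifi203. The cluster genes Ifi202b and Ifi205 had changes of -0.01 and 0.0063 at dim levels, from 3.96 to 4.19.

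**Figure D2:**
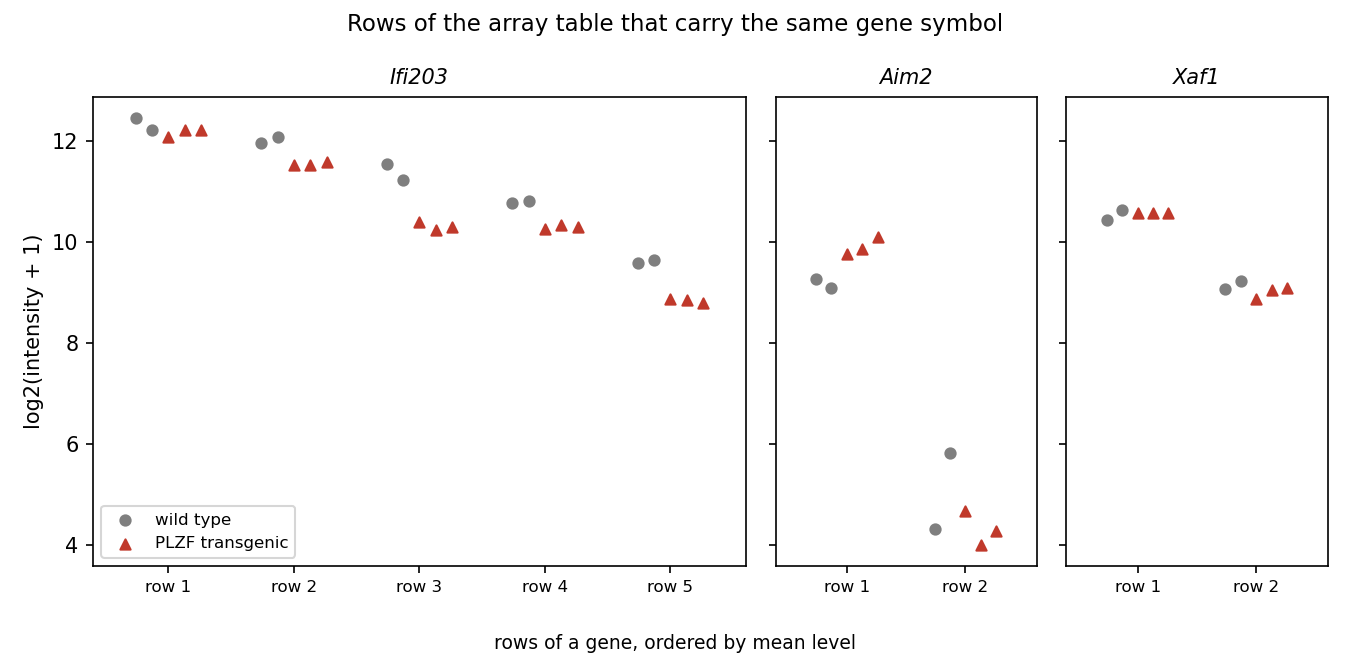
The vertical axis is log2(intensity + 1), and each cluster of 5 points is 1 row of the table, ordered by mean level within a gene (grey circles, wild type arrays; red triangles, PLZF transgenic arrays). Rows 2 to 5 of Ifi203 have all transgenic points below the wild type points while row 1 does not, and the pair of Aim2 rows point in opposite directions.

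Neither measured transcription factor of the set was called. Irf9, the DNA-binding partner of Stat2, measured 10.49 and 10.60 in wild type and 10.49, 10.47 and 10.49 in transgenic arrays, a change of -0.06 with a 95% interval from -0.17 to 0.05. Irf1, a factor induced by interferon gamma as well as by type I interferons, measured 9.65 and 9.78 in wild type and 10.06, 10.01 and 9.91 in transgenic arrays. Irf1 thus had all transgenic values above both wild type values, with a change of 0.28 ± 0.07 (SE) and a limma adjusted p of 0.165. It passed after quantile normalization (0.0451) and among genes with 5 different values (0.0480).

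Parp9, Dtx3l and Parp14 are adjacent on chromosome 16 and encode 2 ADP-ribosyltransferases and the ubiquitin ligase Dtx3l, which acts with Parp9. Parp14 measured 10.72 and 10.79 in wild type and 11.003, 10.93 and 10.94 in transgenic arrays. Its groups were apart, with a change of 0.20 ± 0.04 (SE) and a limma adjusted p of 0.0904, and it passed after cyclic loess (0.0373), quantile normalization (0.0295) or removal of dim genes (0.0414). Dtx3l had a change of 0.12, with 10.90 and 11.09 in wild type and 11.09, 11.16 and 11.09 in transgenic arrays. Parp9 read 10.07 in 4 arrays and 10.08 in wild type replicate 2, a change of -0.0055.

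Lgals9, the galectin that binds the inhibitory receptor TIM-3, measured 11.77 and 11.95 in wild type and 11.64, 11.66 and 11.57 in transgenic arrays. All transgenic values were below both wild type values, with a change of -0.24 ± 0.07 (SE) and a limma adjusted p of 0.223. Lgals3bp, a secreted ligand of galectins, had a change of 0.15, with 4 of its 5 values between 9.73 and 9.74 and wild type replicate 1 at 9.44. Tor3a, an ATPase of the endoplasmic reticulum, had the largest change among the other induced genes, from 7.71 and 8.0 to 8.21, 8.17 and 8.11. Its change of 0.31 ± 0.11 (SE) had a limma adjusted p of 0.305. Ifi35 and Nmi, which bind each other, had changes of -0.06 and 0.05, Epsti1 of 0.11 and Tdrd7 of 0.0088.

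**Figure D3:**
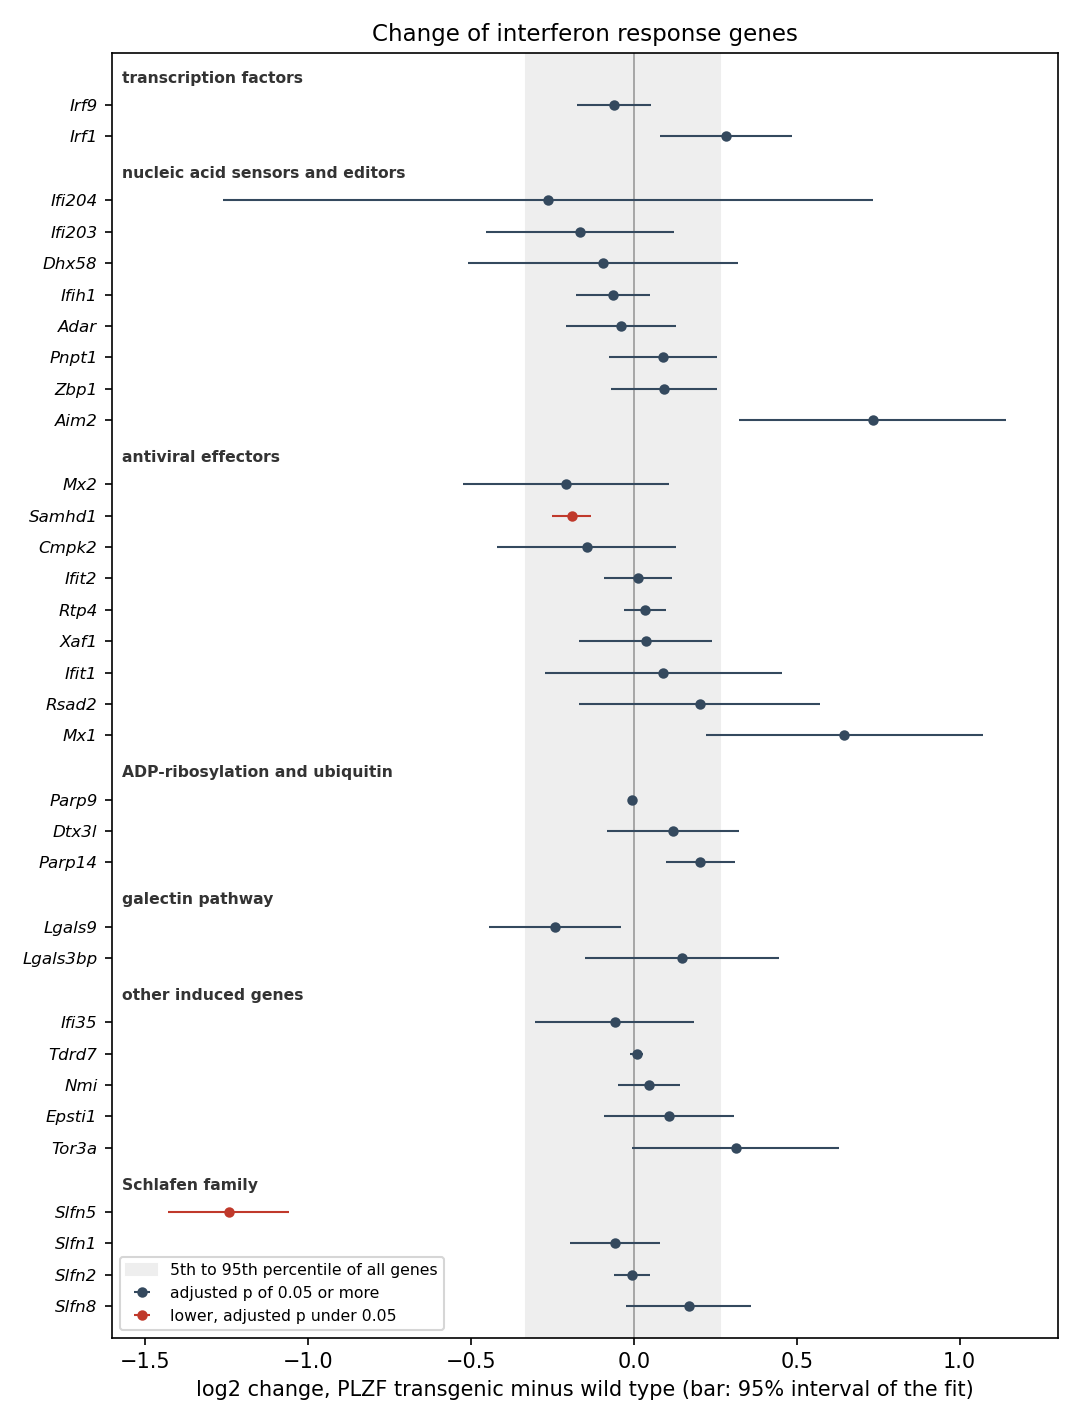
Points are the log2 change of each measured member, PLZF transgenic minus wild type, with bars for the 95% interval of the limma fit, and the grey band spans the 5th to 95th percentile of the changes of all 12267 genes, from -0.33 to 0.26. Slfn5 and Samhd1, in red, are the members called lower, and Samhd1 lies inside the band.

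The 2 wild type arrays were not alike for these genes. Wild type replicate 2 was higher than replicate 1 at 31 of 33 members, by a median of 0.15 on the log2 scale. Over genes at or above the median level it was higher at 66.4%, by a median of 0.04. The gap was 0.74 for the dim Ifi204, 0.41 for Dhx58, 0.36 for Mx1, 0.35 for Rsad2, 0.29 for Lgals3bp and 0.25 for Cmpk2. Aim2 and Ifi203 had the higher value in replicate 1. At 25 of the 33 members (75.8%) the wild type gap was larger than the genotype change, against 50.2% of genes at or above the median level. Where all transgenic arrays repeat a wild type value, as at Tdrd7 and Parp9, the gap is larger by construction. The transgenic arrays stayed close together, with a median deviation of the members from their wild type means of 0.02, 0.01 and 0.01, against -0.07 and 0.07 for wild type replicates 1 and 2. With 2 wild type samples, no test of this gap was possible.

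Identical values touch these readings. At 20 of the 33 members at least 2 arrays held the same value within 0.000005 on the log2 scale, as at 67.2% of all genes, and at 6 (Ifit2, Dhx58, Xaf1, Parp9, Ifi35 and Tdrd7) all 3 transgenic arrays did. At those 6 the SD of the transgenic arrays was 0, and none of the 6 was called. Of the 13 members with 5 different values, 12 were higher in wild type replicate 2, and the wild type gap exceeded the genotype change at 5 (38.5%). The 75.8% over all members is thus largely made up of members with tied values. No share over all genes with 5 different values was taken beside the 38.5%.

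**Figure D4:**
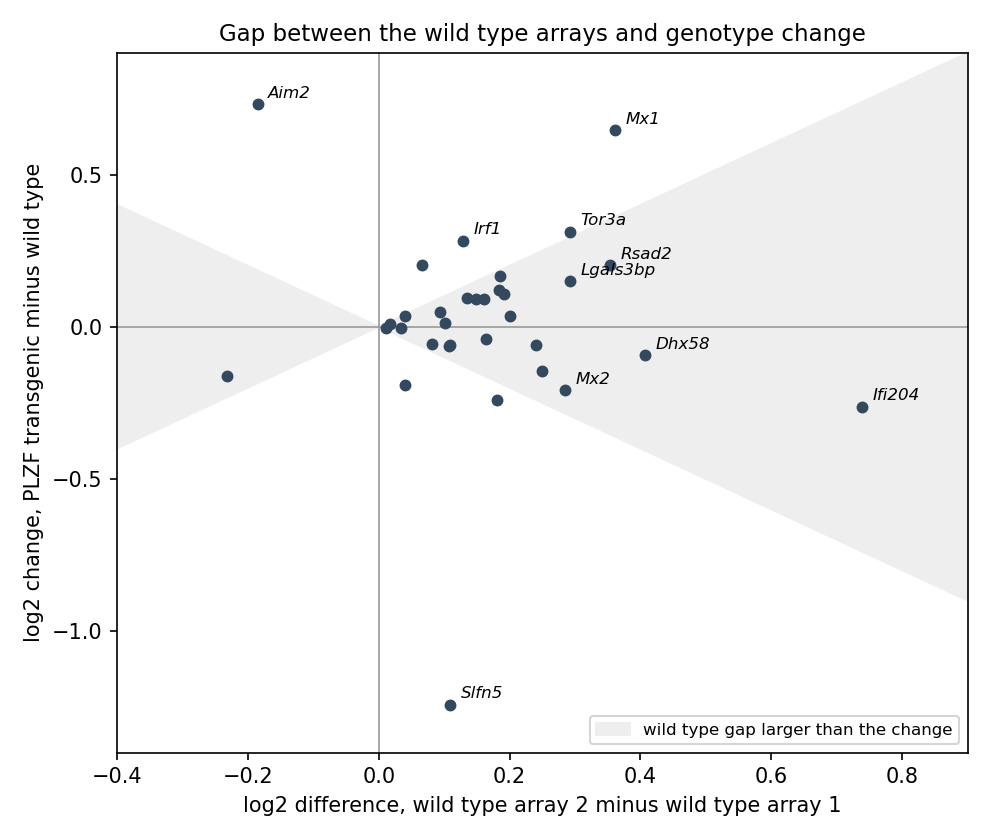
Each point is a measured member, with the log2 difference between the wild type arrays (replicate 2 minus replicate 1) on the horizontal axis and the log2 change, PLZF transgenic minus wild type, on the vertical axis; the grey area is where the wild type gap is the larger of the pair. Most points lie to the right of 0 and 25 of 33 lie in the grey area, while Slfn5, Aim2 and Mx1 lie outside it.

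Markers were read beside this. Of 16 T cell markers listed, 7 were measured (Cd2, Cd5, Cd28, Cd247, Zap70, Bcl11b and Themis), with a mean level of 11.003 and 11.07 in wild type and 10.73 to 10.75 in transgenic arrays. Cd2, a T cell adhesion receptor, fell by 1.11 ± 0.04 (SE, limma adjusted p = 0.00955), and Cd5 and Cd28 fell by 0.36 and 0.21 (0.0437 and 0.0144). Cd4 and Cd8a were not analysed here, so the gate could not be checked on its own genes. Of 16 genes of dendritic cells and macrophages, which respond strongly to interferon, 6 were measured and none was called. Their mean level was 6.35 and 6.69 in wild type replicates 1 and 2 and 6.14, 6.24 and 6.25 in transgenic arrays, and Ly86 read 7.34 and 8.10 in those wild type arrays against 6.71, 7.15 and 7.18 in transgenic ones, while Adgre1 read 4.68 in every array. The part of these markers or of the T cell markers in the wild type gap or in the members' changes was not tested. Of the markers of B cells, thymic epithelium and granulocytes, 15 were measured and 0 called by limma. At an unadjusted p under 0.05 in limma, 1 was higher, against 7.07% of all genes, and 2 were lower, against 9.74%.

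The rest of the pathway was read through 99 other genes, of which 36 were measured. Of these 0 were higher, against 1.72% of all genes, and 4 lower (11.1%), against 3.02%, with a median change of -0.02. At an unadjusted p under 0.05 in limma, 4 of the 36 were higher, against 7.07% of all genes, and 11 lower, against 9.74%. None of 6 measured receptor chains and kinases rose, and Ifngr1, the ligand-binding chain of the receptor for interferon gamma and not for type I interferons, was lower. It measured 9.87 and 10.16 in wild type and 8.66, 8.71 and 8.88 in transgenic arrays, a change of -1.26 ± 0.13 (SE, limma adjusted p = 0.0350). Neither chain of the type I receptor was called. Ifnar1 measured 10.17 and 10.32 in wild type and 10.14, 10.13 and 10.11 in transgenic arrays, a change of -0.11 with a 95% interval from -0.27 to 0.04. Ifnar2 read 10.83 in each transgenic array, between wild type values of 10.75 and 10.89. Jak1 had a change of -0.27 (limma adjusted p = 0.196) and Jak2 one of 0.14 (0.0652). Stat2, the partner of Irf9, measured 9.77 and 10.02 in wild type and 9.77, 9.77 and 9.73 in transgenic arrays, a change of -0.14. Irf4, which is not part of the type I complex, had the largest change of the 3 STAT and IRF genes measured, -0.15 (limma adjusted p = 0.273).

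Ptpn1, a phosphatase that acts on Jak2 and Tyk2, was the inhibitor that fell, from 9.22 and 9.17 to 8.71, 8.80 and 8.85, a change of -0.41 ± 0.05 (SE, limma adjusted p = 0.0479). Socs1 and Socs3, feedback inhibitors that are themselves induced by cytokines, had changes of 0.11 and 0.03. Ticam1, the adaptor of Toll-like receptor 3, had the largest change among 6 measured genes upstream of interferon production, from 8.51 and 8.66 to 8.96, 9.13 and 9.01. Its change of 0.45 ± 0.08 (SE) had a limma adjusted p of 0.0920, and the changes of Sting1, Tbk1 and Mavs were 0.01, -0.0052 and -0.02. Ikbke and Trim25, each below both wild type values in all transgenic arrays, had changes of -0.35 and -0.20 (limma adjusted p = 0.118 and 0.283). Ifna4 was the ligand gene called lower, by -0.17 ± 0.02 (SE, limma adjusted p = 0.0383), at levels between 3.40 and 3.60 under the lower quartile of gene means.

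Among 14 further interferon-stimulated genes 1 fell and none rose, where 3.02% and 1.72% of all genes did. Daxx, a chaperone of histone H3.3, went from 10.21 and 10.30 to 9.90, 9.96 and 9.88, a change of -0.34 ± 0.04 (SE, limma adjusted p = 0.0490). Isg15, the ubiquitin-like modifier and a classical interferon target, had the largest change of this list. It measured 5.77 and 6.16 in wild type and 5.49, 5.53 and 5.04 in transgenic arrays, with no overlap, and a change of -0.62 ± 0.23 (SE, limma adjusted p = 0.357). None of Ifngr1, Ptpn1, Daxx and Ifna4 was called over all genes with array weights, with the replicate number as a block or without transgenic replicate 1, 2 or 3. With an intensity trend and robust fit Ptpn1, Daxx and Ifna4 were not called (limma adjusted p = 0.0640, 0.0655 and 0.0516). Among genes with 5 different values, with all arrays, Ifngr1, Ptpn1 and Daxx were called (limma adjusted p = 0.00274, 0.0115 and 0.0157). Ifna4 was not called there (0.0619). That set is picked by the same values and holds a larger share of called genes, so a call in it is not separate support. Over all genes, without wild type replicate 1 Ifna4 and Ptpn1 were not called either (limma adjusted p = 0.0645 and 0.0813), and without wild type replicate 2 Ifna4, Ptpn1 and Daxx were not (0.0746, 0.0892 and 0.0734).

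**Figure D5:**
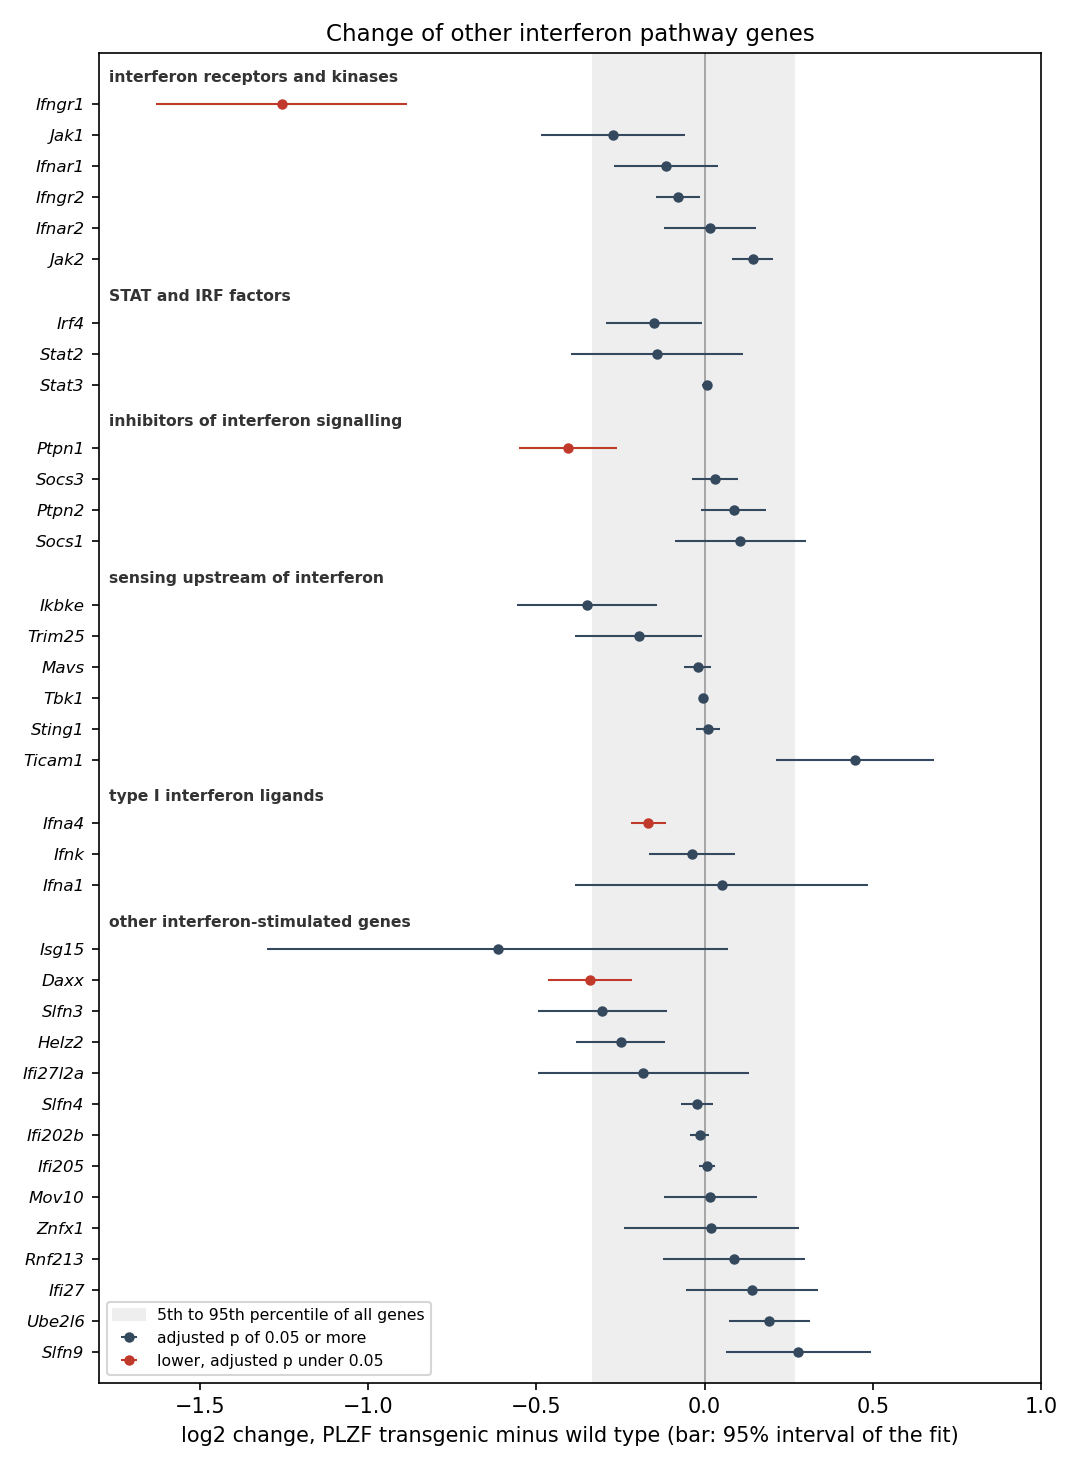
Points are log2 changes of the 36 measured pathway genes outside the set, PLZF transgenic minus wild type, with bars for the 95% interval, grouped by role, and the grey band spans the 5th to 95th percentile of all genes. Ifngr1, Ptpn1, Ifna4 and Daxx, in red, are the genes called lower, and none was called higher.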

How the data were processed

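Amplified cDNA was labelled with biotin and read on 1 exon array per sample, per the labels' protocols. RMA and Affymetrix Expression Console are named in the submitters' processing notes, with the build mm9 and no version. What the authors deposited are linear intensity values, and 100.00% of them have a log2 with no more than 5 decimals. RMA in its usual form equalises the arrays, so a change common to most genes would not be seen. Array medians ran from 59.0 to 60.3, and arrays of a genotype correlated across genes at 0.996 to 0.998. Probe level data were not used here, and precision is set by how few arrays there are.

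Of 65529 rows, 14011 had 1 symbol in the platform annotation, 864 several and 50654 none. For the 1257 genes with several rows the brightest was kept. Of the 12267 genes, 12020 matched RefSeq (GRCm38.p6) by Entrez identifier, used for names, gene order and promoters. The model on log2(intensity + 1) used limma 3.58.1 (lmFit, eBayes) under R 4.3.3, with 3 residual and 0.5 prior degrees of freedom, and the Benjamini-Hochberg method. It was tested on simulated data. These had no tied values and held planted changes larger than those of Samhd1, Ptpn1, Daxx and Ifna4, so ties and small changes were not covered. Exact permutation of so few arrays cannot reach 0.05 and was not used.

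The members, the lists and the tests were chosen with earlier results of these data known. The naming rule gave values per array for members past the threshold, for those with an adjusted p under 0.1, for the largest change in a role group without a call and for members whose rows disagree in sign. Of pathway genes it took those past the threshold and the largest change of each list. Others named were chosen after their values were seen. Zbtb16, which encodes PLZF, was not analysed here, so the genotype labels have no check.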

Additional observations from a re-analysis of the deposited data

How the results depend on the processing

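Alternatives were other normalizations, variance models and gene sets, the replicate number as a block, and each array left out. The log2 change of Slfn5 ran from -1.30 to -1.19 over them. Members called lower, 2 in the reported fit, numbered 0 with the replicate block, 0 with array weights, 1 with an intensity trend and robust fit and 3 with the mean of a gene's rows. The replicate block left 0 calls over all genes. The arrays share only a number, and deviations of same-numbered pairs correlated at 0.14 and 0.05 across genes. Members called higher, 0 in the reported fit, numbered 1 with cyclic loess (Parp14), 3 with quantile normalization (Irf1, Aim2 and Parp14), 2 with dim genes removed (Aim2 and Parp14) and 3 among genes with 5 different values (Irf1, Aim2 and Mx1). In that last set the median change was 0.0911. Leaving out 1 array, the members called higher ranged from 0 to 9, those called lower from 0 to 10 and the median change from -0.0110 to 0.0948. Both highest counts came from fits with 1 wild type array, whose spread is taken from the transgenic arrays alone. That spread was 0 at the 6 members with identical transgenic values, so calls of them there do not show a change. Among genes with 5 different values, an alternative added after seeing the data, leaving out 1 array gave 0 to 3 higher, 1 to 3 lower, and a median change from 0.0136 to 0.176, with 0.166 without wild type replicate 2 and 0.0836 without transgenic replicate 2. Leaving out 1 array turned the sign for 7 members, none of them called in the reported fit: Ifit2 (-0.0373 to 0.0643), Xaf1 (-0.0637 to 0.137), Dhx58 (-0.298 to 0.109), Ifi35 (-0.179 to 0.0617), Ifi204 (-0.632 to 0.106), Adar (-0.121 to 0.0435) and Slfn2 (-0.0220 to 0.0123). Another setting with all arrays turned it for Aim2, Xaf1, Adar, Parp9, Tdrd7 and Slfn2. Over all genes 211 were called higher and 370 lower, against 395 and 569 with cyclic loess, 525 and 607 with quantile normalization, 372 and 569 with dim genes removed, 418 and 625 among genes with 5 different values and 1 and 0 with array weights. Without transgenic replicate 1, 2 or 3 these counts were 2 and 2, 11 and 34, and 3 and 7, and without wild type replicate 1 or 2 they were 1319 and 1571, and 1066 and 786. The causes of these shifts were not tested.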
